A study of Mus musculus with 27 samples.

Results

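Ventricles of mouse embryos at E16.5, a late embryonic stage counted in days, were compared with cardiomyocytes, the contracting muscle cells of the heart, of 8-week-old mice. Only control libraries entered, 3 of Hand2asF/+ ventricle and 5 of Hand2as+/+ cardiomyocytes, of the 25 bulk libraries and 27 samples of the series. All mice were of strain C57BL/6. Of 24025 genes with values, the 10904 with a mean of at least 1 FPKM (a read level scaled to transcript length and library depth) over the 8 libraries were tested. The study set out to compare hearts with and without Hand2as (also called Hand2os1 or Uph), a long non-coding RNA gene that neighbours Hand2, which encodes a transcription factor of the heart. Per the labels, F is an allele that lacks the whole Hand2as gene and D an allele that lacks its distal end, so the embryonic controls carried 1 deleted copy and the 8-week controls none. Age, the isolation of cells and this genotype changed together between the groups and cannot be told apart. Nothing in the sources used here says whether replicates came from separate animals, so p-values measure the spread between these libraries.

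Around birth the mammalian heart passes from growth by cell division to growth by enlargement of cells that no longer divide. Its muscle cells exchange fetal for adult forms of contractile proteins, build transverse tubules and a large calcium store, and move from glucose and lactate to fatty acids as fuel. The rodent ventricle also exchanges its slow beta myosin for the fast alpha myosin, which in large mammals it does not.

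The deposited values summed to between 334194 and 339074 FPKM in the E16.5 libraries and between 415950 and 476494 at 8 weeks, and the number of reads behind them is unknown. Hand2os1, read here from the symbol LOC102636514, stood at 0.81, 0.37 and 1.40 FPKM in the E16.5 libraries, in order of replicate. At 8 weeks it stood between 6.90 and 13.5 in replicates 1 to 4 and at 0 in replicate 5. This library, labelled Hand2as+/+, was thus listed at 0 for the gene that its label says is intact. The E11.5 F/+ bulk libraries, which carry 1 intact copy per the labels, also averaged 0 for Hand2os1. Hand2os1 was called higher at 8 weeks by 1.91 on the log2 scale (adjusted p = 0.0494, limma), but not under every scaling. Hand2 itself stood at 52.9, 49.4 and 46.0 FPKM at E16.5 and at 42.9, 35.8, 58.6, 58.3 and 88.0 at 8 weeks, groups that overlapped, with a log2 difference of 0.13 (SE 0.25, adjusted p = 0.663) by limma. The 8-week library labelled replicate 5 also stood apart across all genes: its Pearson correlation with the other 8-week libraries was 0.910 to 0.939, against 0.974 to 0.985 among those 4. Its transcripts over 8000 bases lay lower than in the other 4 by a median of 0.28 on the log2 scale, while those under 1000 bases lay higher by 0.07. It was kept, and counts without it are given beside those that move by over 1.5 times.

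By limma on log2(FPKM + 1), 2716 genes were higher at 8 weeks (24.9% of those tested) and 4897 were lower (44.9%), at a Benjamini-Hochberg adjusted p under 0.05. Past a 2-fold difference, tested with limma's treat, 953 were higher (8.74%) and 1586 lower (14.5%). The 2 groups did not overlap for 66.1% of genes. In bulk libraries fewer cells of a type and less RNA per cell cannot be told apart. Every difference below is 8-week minus E16.5 on this log2 scale, which understates the change of low genes. The median over all genes was -0.34. Scaling the libraries by median ratios moved that median to 0.01 and gave 3673 higher and 3543 lower genes, so 50.9% of calls were then higher against 35.7% as deposited. With each library set to the same total the median was -0.65 and the split 2024 to 5983, and with upper-quartile scaling -0.09 and 3379 to 3940. A call is named stable here where it held as deposited and under all 3 scalings, which was so for 2024 higher and 3543 lower genes. Without replicate 5, 3204 genes were higher and 5332 lower. Genes named below as higher or lower had stable calls unless stated.

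The same contrast was made in libraries that shared no sample with it, 6 of Hand2asD/D cardiomyocytes against 3 of Hand2asF/F ventricle. There 24.2% of genes were called higher and 42.6% lower. Of 10762 genes tested in both, 2369 were higher in both, 4350 lower in both and none opposite. That is 87.8% of the higher and 90.1% of the lower calls among the controls, and 91.2% and 94.0% of those among the deletion libraries. The difference between the 2 contrasts passed for 1 of 10959 genes by limma's interaction, and 110 had an unadjusted p under 0.05. Of the genes named in the text, Hand2, Eef1a1 and Ppargc1a passed in the deletion libraries but not among the controls. In the deletion libraries Hand2 (0.71, adjusted p = 0.00126) and Eef1a1 (1.498, adjusted p = 0.00797) were higher and Ppargc1a (-0.81, adjusted p = 0.0219) was lower. Actc1 (1.25, adjusted p = 0.0829), Myc (-1.61, adjusted p = 0.157) and Dbp (1.64, adjusted p = 0.155) did not pass there, all by limma.

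**Figure D1:**
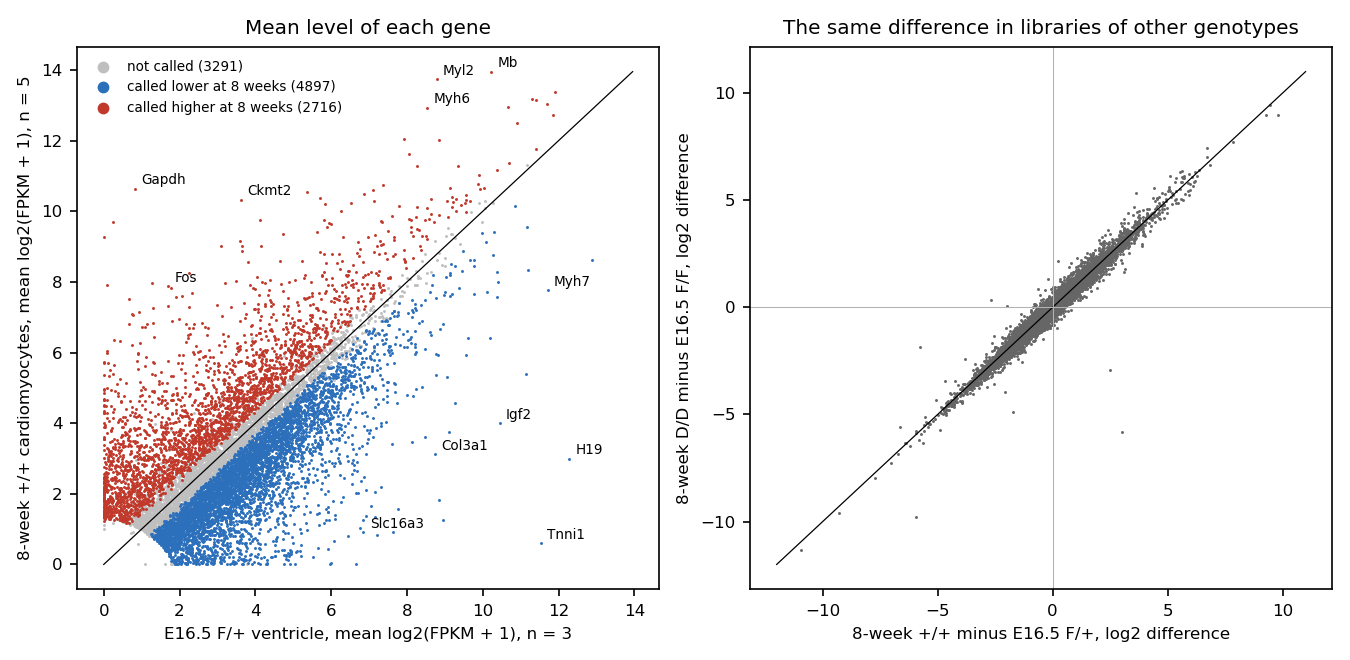
Left, the mean log2(FPKM + 1) of each tested gene in 3 E16.5 F/+ ventricle libraries (x axis) and 5 8-week +/+ cardiomyocyte libraries (y axis), coloured by limma call, with the line of equality. Right, the log2 difference of the controls (x axis) against that of the D/D and F/F libraries (y axis), where no gene was called in opposite directions.

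Some genes that every cell uses were listed at or near 0 at E16.5, which bears on every rise below. Gapdh, a glycolytic enzyme often used as a reference, stood at 1.10, 0.52 and 0.75 FPKM at E16.5 and at 1236, 1253, 1601, 1673 and 2529 at 8 weeks. Ppia, which encodes cyclophilin A, was listed at 0, 0 and 0 at E16.5 and at 49.6, 39.4, 51.4, 40.9 and 1.20 at 8 weeks. The unique molecular identifiers (UMIs, counted molecules) of E11.5 heart cells of the series were summed over Hand2as+/+ and F/F cells. In this sum Gapdh stood at 2383 CPM (counts scaled to a common total over all these cells) and Ppia at 3529. The 3 bulk F/+ libraries of that age averaged 0.97 FPKM for Gapdh and 0 for Ppia. Of 1061 genes with at least 100 UMI CPM, 43 had a mean under 1 FPKM in these E11.5 bulk libraries, 61 at E16.5 and 56 at 8 weeks, of which 19, 23 and 6 encode ribosomal proteins. Genes this low in one group could enter the test only through the other, so their calls are not counted here.

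Sequence shared with pseudogenes moved with this pattern. Genes with over 50% of their longest coding transcript, in words of 31 bases, also in an annotated pseudogene had a median difference of 0.64, and 44.3% were called higher. Genes with no such word had a median of -0.32 and 25.2% were called higher. The means of 21.6% of the former were under 1 FPKM at E16.5, against 6.19% at 8 weeks. Gapdh shared 84.1% of its words with pseudogenes. A pseudogene of the Gapdh sequence, Gm12070, with 96.8% of its words in Gapdh, moved with it from 0.25, 0.22 and 0.07 to 796, 858, 769, 932 and 833 FPKM. Of the other genes named below, Eno1, Eef1a1, Pgk1, Pgam1, Ldhb, Fabp3, Ckb, Ldha and Rpl35 shared over 25%, as did Ppia. Reads may thus be divided between these genes and their copies. The part of such sharing in any single difference was not tested. Among the 9905 genes with at most 25% shared, 2418 were higher and 4502 lower.

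**Figure D2:**
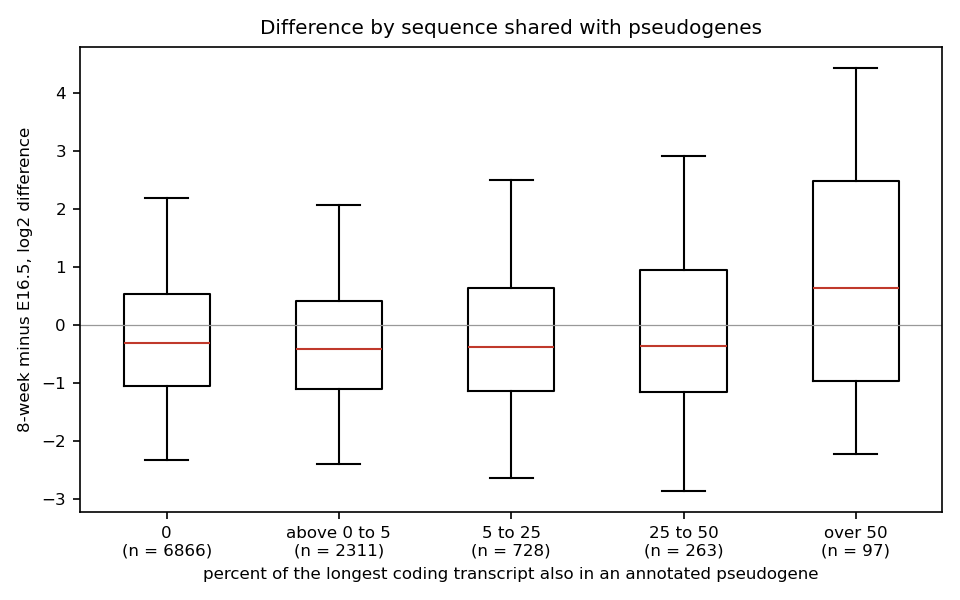
Log2 difference (y axis, 8-week minus E16.5) of genes grouped by the percent of their longest coding transcript found in annotated pseudogenes (x axis), with medians, quartiles and whiskers at the 5th and 95th percentiles. Only the group over 50% has a median above 0.

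Contractile proteins changed by form rather than all together. The thick filament carries myosin, the motor, and 9 of its 14 tested genes were higher and 4 lower. Myh6, the alpha myosin heavy chain, stood at 319, 372 and 421 FPKM at E16.5 and at 6976, 6743, 7982, 7903 and 10076 at 8 weeks, a difference of 4.41 (SE 0.17, adjusted p = 4.82e-08). Myh7, the beta heavy chain, went the other way, from 3124, 3248 and 3719.9 to 158, 804, 151, 143 and 176 FPKM, a difference of -3.94 (SE 0.51, adjusted p = 9.79e-05). No library of one group reached the other for either gene, and replicate 2 held the highest Myh7 of the 5 adult libraries. Within each library the log2 ratio of Myh6 to Myh7 averaged -3.18 ± 0.09 (SD, n = 3) at E16.5 and 5.17 ± 1.18 (SD, n = 5) at 8 weeks.

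Myl2, the ventricular regulatory light chain, rose from 783, 326 and 337 to 11845, 14356, 13332, 13626 and 15819 FPKM, a difference of 4.96 (SE 0.27, adjusted p = 3.62e-07). Myl4, the fetal and atrial essential light chain, fell from 601, 633 and 599.9 to 229, 44.3, 3.16, 56.8 and 2.05 FPKM, a difference of -4.68 (SE 1.27, adjusted p = 0.0083). Among the adult libraries Myl4 thus spanned 2.05 to 229 FPKM. Myl3, the ventricular essential light chain, was abundant in both groups, at 3671, 3498 and 3912 and at 5621, 6398, 6342, 7437 and 8187 FPKM, and rose by 0.87. Myl7, the atrial regulatory light chain, overlapped between the groups, at 312, 357 and 335 and at 323, 69.3, 3.83, 87.0 and 2.72 FPKM, and its difference of -3.37 (SE 1.34, adjusted p = 0.0466) was not stable. Its call was lost without adult replicate 2, 3 or 5 or any E16.5 library, at -2.59 to -3.65 (adjusted p = 0.0536 to 0.106, limma). Myom2, an adult M-band protein, rose from 29.0, 21.2 and 22.4 to 396, 730.4, 298, 340.4 and 278 FPKM, and its highest adult value was in replicate 2, as for Myh7.

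Thin filament genes split, with 8 of 17 higher and 9 lower, against 24.9% and 44.9% of all genes. Their median was -0.57, against -0.34 for all genes. Tnni1, the slow skeletal troponin I of the fetal heart, stood at 3027, 2790.0 and 3114 FPKM at E16.5 and was at or near 0 at 8 weeks, at 1.12, 1.19, 0, 0.80 and 0. Tnni3, the adult cardiac troponin I, rose from 1535, 1519 and 1882 to 8679, 6434, 5257, 10338 and 10406 FPKM. The Tnni3 to Tnni1 ratio had the largest shift of the 32 pairs examined, 13.20 on the log2 scale (two-sided exact permutation p = 0.0179, adjusted 0.0229). Lmod2, a leiomodin that elongates actin filaments, rose by 3.72. The tropomyosins Tpm4 and Tpm2 fell by 3.17 and 2.14. Actc1, the cardiac actin, rose from 3518, 3093 and 3301 to 9894, 7301, 10652, 12050.5 and 4605 FPKM, and Acta1, the skeletal actin, from 61.6, 59.2 and 56.3 to 270.0, 254, 225, 352 and 150.04. The skeletal form rose more, so the Actc1 to Acta1 ratio shifted by -0.66 (exact permutation p = 0.0357, adjusted 0.0423).

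Pairs of related genes were compared as ratios within a library, which no scaling of libraries changes beyond the added 1 FPKM. Of the 32 pairs, 27 passed at an adjusted p under 0.05 by a two-sided exact permutation test over 56 splits, whose smallest p is 0.0179. The form listed as adult gained in 24 of them and lost in 3, namely Actc1 over Acta1, Kcnj2 over Kcnj3 and Pgam2 over Pgam1. In the D/D and F/F libraries 31 of 32 moved the same way. With any E16.5 library left out the smallest possible p is 0.0476 and no pair passes after adjustment. The call for Actc1 over Acta1 was also lost without adult replicate 1, 2, 4 or 5 (adjusted p = 0.0631 to 0.0677), Eno3 over Eno1 without 1, 2, 3 or 4 (0.098), Myl2 over Myl7 without 2 or 4 (0.0677) and Casq2 over Casq1 without 2 (0.0677), all by the exact permutation test. The pair list was drawn up with earlier results in view, so its count is a description.

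**Figure D3:**
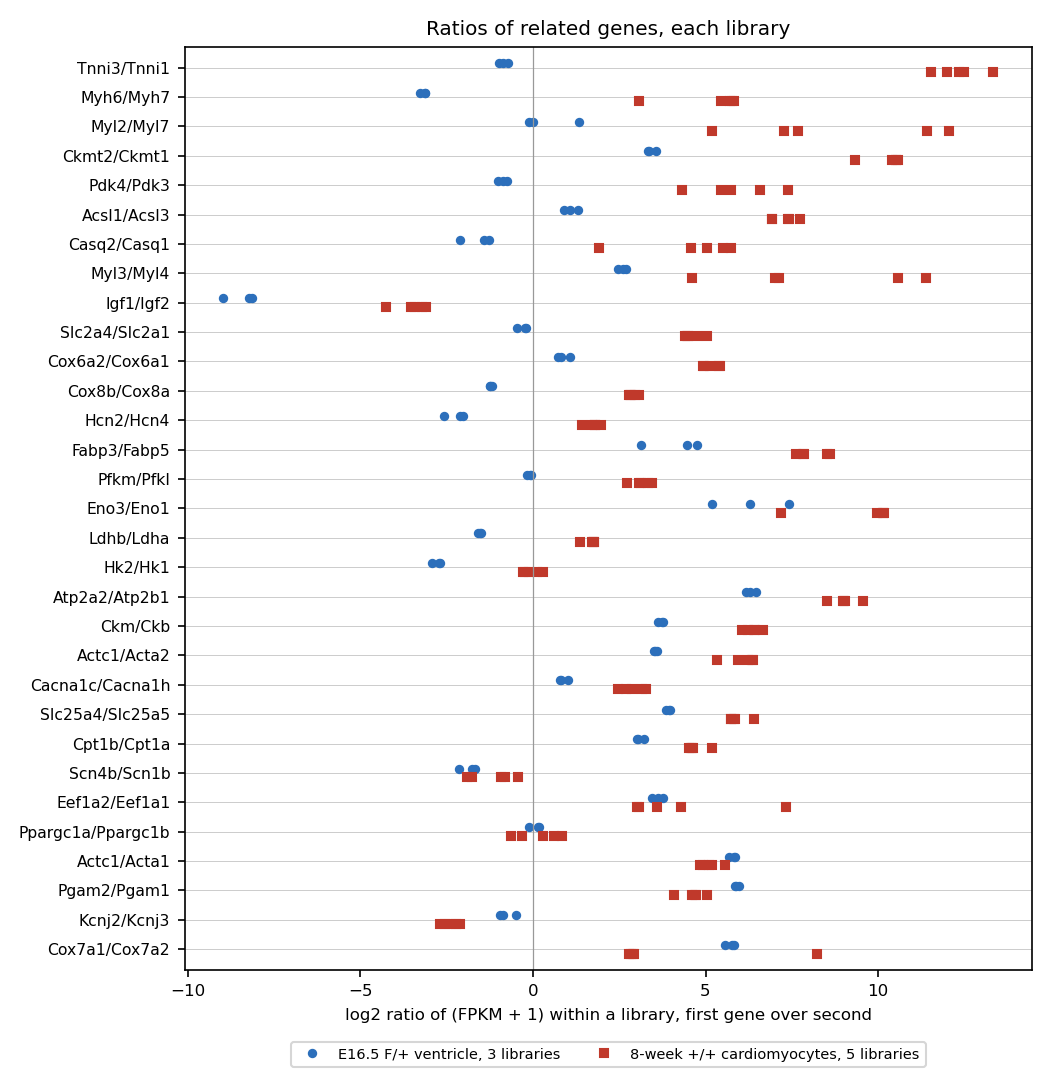
Log2 ratio of FPKM + 1 (x axis) of the first named gene over the second, for 31 of the 32 pairs of related genes (y axis), in each of 3 E16.5 (circles) and 5 8-week libraries (squares). Tnni3 over Tnni1 shifts by 13.2 and lies at the top, and Cox7a1 over Cox7a2 lies at the bottom, with 1 adult library apart from the other 4.

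Genes of the Z-disc, which anchors the thin filaments, were mostly higher, 17 of 25, with a median of 1.39 against -0.34 for all genes. Ttn, the giant spring of the sarcomere, rose from 6.18, 8.04 and 7.65 to 113, 112, 94.2, 79.7 and 21.1 FPKM and Tcap, its cap at the Z-disc, from 98.7, 114 and 136 to 1082, 1306, 1918, 967 and 2409.7. Xirp2, an intercalated disc and Z-disc protein, was at most 0.09 FPKM at E16.5 and between 8.83 and 34.3 at 8 weeks. Myot, the Z-disc protein myotilin, was listed at 0 in all 3 embryonic libraries and at 26.4, 24.2, 22.4, 31.6 and 11.01 FPKM at 8 weeks. Both genes and Ttn had their lowest adult value in replicate 5. The 4 genes that were lower were Pdlim3, Myoz1, Synpo2l and Obsl1, which fell by 2.32, 2.29, 1.95 and 1.21. Myoz1, a calsarcin of the Z-disc, was low in both groups, at 3.86, 3.33 and 5.72 and at 0.12, 0, 0.10, 0.10 and 0 FPKM.

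Of 24 genes of calcium storage and release, 13 were higher and 8 lower, against 24.9% and 44.9% of all genes. Pln, the inhibitor of the calcium pump, stood at 13.3, 16.2 and 22.1 FPKM at E16.5 and at 715, 666, 584, 573 and 222 at 8 weeks, a difference of 4.85 (SE 0.36, adjusted p = 2.37e-06). The pump itself, Atp2a2, rose from 304, 317 and 303 to 2919.6, 2418, 2755, 2757 and 1861 FPKM, or by 3.02. The release channel Ryr2 rose from 11.9, 12.6 and 12.3 to 188, 144, 150.3, 134 and 56.2 FPKM, and Hrc, a calcium-binding protein of the store, rose by 3.63. Calsequestrins, which buffer calcium in the store, changed places: Casq2 went from 11.7, 10.4 and 14.3 to 340.5, 253, 282, 311 and 16.6 FPKM and Casq1 from 29.6, 48.7 and 39.6 to 5.44, 9.58, 5.27, 8.39 and 3.70. Replicate 5 held 16.6 FPKM of Casq2, near the embryonic values, while the other adult libraries held at least 253.

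The T-type calcium channel Cacna1h fell from 14.5, 17.7 and 17.2 to 2.92, 3.33, 4.64, 6.56 and 3.71 FPKM. The L-type channel Cacna1c stood at 30.2, 31.4 and 31.1 and at 34.0, 40.9, 40.2, 41.0 and 29.8 FPKM, which did not pass (a difference of 0.25, SE 0.14, adjusted p = 0.128, limma) and passed without replicate 5, at 0.32 (adjusted p = 0.0147, limma). It also passed as higher under median-ratio (0.66, adjusted p = 0.00171) and upper-quartile scaling (0.54, adjusted p = 0.00673) by limma. Sln, sarcolipin, an atrial regulator of the pump, was listed at 0, 0 and 0 FPKM at E16.5 and at 210.2, 26.8, 0.33, 26.2 and 0 at 8 weeks, and did not pass (adjusted p = 0.0669, limma). It passed without adult replicate 3 (adjusted p = 0.0291) or 5 (adjusted p = 0.012) by limma.

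Ion channel genes were higher in 18 of 29 cases and lower in 5, with a median of 1.28. Hcn2, a pacemaker channel, rose from 0.25, 0.38 and 0.47 to 25.7, 16.8, 24.1, 25.9 and 25.4 FPKM, while Hcn4, its sinus node relative, stood at 4.10, 7.28 and 5.38 and at 6.72, 5.63, 6.70, 5.90 and 6.53 FPKM and did not pass (a difference of 0.17, SE 0.17, adjusted p = 0.386, limma). Hcn4 passed as higher under median-ratio (0.53, adjusted p = 0.0191) and upper-quartile scaling (0.43, adjusted p = 0.045) by limma. Kcnk3, a background potassium channel, rose by 3.31. Kcnj3, a muscarinic-gated potassium channel subunit, rose by 3.03, more than Kcnj2, a strong inward rectifier, which rose by 1.40. Kcne1, a potassium channel subunit, fell from 26.8, 25.2 and 26.5 to 2.49, 1.94, 2.64, 3.97 and 0.54 FPKM. Gja5 and Gjc1, connexins of the fetal and conduction myocardium, fell by 2.57 and 0.99.

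Of 25 genes of transverse tubules and intercalated discs, 12 were higher and 7 lower, against 24.9% and 44.9% of all genes. With libraries set to the same total 9 were higher and 9 lower. Itga7, an adult laminin receptor, rose from 5.26, 5.24 and 5.74 to 50.7, 49.0, 61.6, 65.1 and 71.8 FPKM, while Itga5, a fibronectin receptor, fell from 68.2, 75.04 and 74.4 to 20.2, 23.8, 27.4, 26.6 and 31.6. Sgca, a sarcoglycan, rose by 3.16. Bves, a membrane protein of the Popeye family, fell from 142, 145 and 161 to 17.3, 22.5, 24.9, 23.7 and 23.7 FPKM. Bin1, which shapes transverse tubules, fell from 9.80, 10.99 and 9.75 to 2.02, 1.97, 3.05, 1 and 4.26 FPKM, a difference of -1.77 (SE 0.28, adjusted p = 0.000325). The table gives 1 value per gene, so a change of Bin1 form cannot be seen in it.

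**Figure D4:**
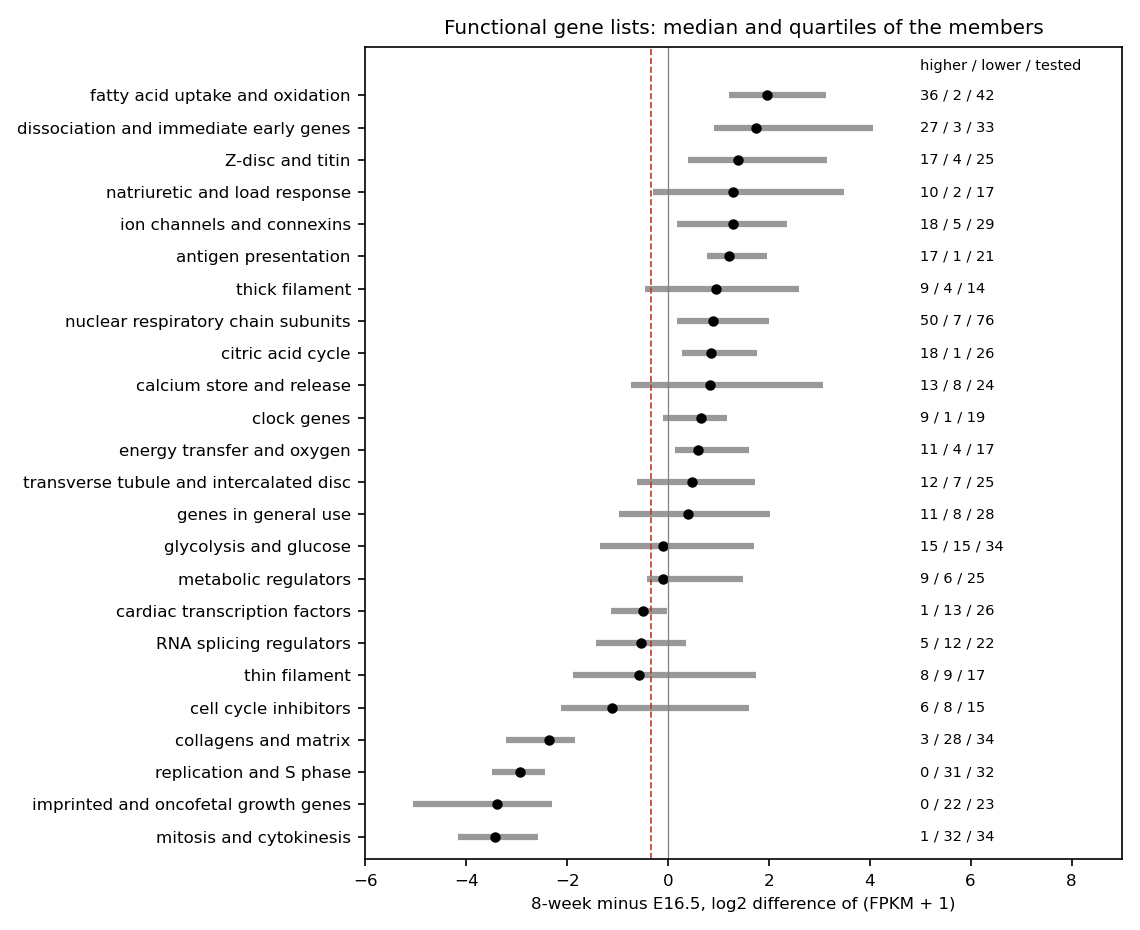
Median (points) and quartiles (bars) of the log2 difference (x axis) over the tested members of 24 functional gene lists (y axis), with counts called higher, lower and tested at the right. The dashed line is the median of all genes, -0.34, and fatty acid genes lie at 1.96. Members with a mean under 1 FPKM over the 8 libraries were not tested and are not drawn.

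Members under 1 FPKM in one group passed the filter only through the other. Over all genes these were 878 of the 4897 lower and 701 of the 2716 higher calls. Outside the lists where this is given below, they were 7 of 28 lower calls for matrix genes and 4 of 15 for glycolysis. They were also 3 of 13 for cardiac transcription factors and 2 of 2 for fatty acids. Among cell type markers they were 5 of 6 lower calls for epicardial, 4 of 7 for erythroid and 3 of 6 for macrophage lists. Of the higher calls they were 6 of 18 for ion channels, 5 of 9 for metabolic regulators and 5 of 27 for immediate early genes. They were also 4 of 17 for antigen presentation, 4 of 11 for genes in general use, 3 of 17 for the Z-disc and 3 of 15 for glycolysis. Further lists held smaller numbers of such calls.

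Under median-ratio scaling fewer members were called lower in several lists: 3 in place of 8 for calcium storage, 3 in place of 7 for the respiratory chain, 3 in place of 5 for ion channels, and 2 in place of 4 for the thick filament and for energy transfer.

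Fatty acid uptake and oxidation had the highest median of the 24 functional lists, or, with genes of over 25% shared sequence left out, the second highest, at 1.91 against 2.19 for immediate early genes. Of 42 genes, 36 were higher and 2 lower, with a median of 1.96. Acadm, the medium-chain acyl-CoA dehydrogenase, rose from 10.6, 12.1 and 12.3 to 564, 624, 467, 493.32 and 292 FPKM, a difference of 5.23 (SE 0.22, adjusted p = 8.62e-08). Lpl, which frees fatty acids from circulating lipoproteins, rose from 49.4, 55.1 and 60.7 to 993, 1164, 955, 960.0 and 443 FPKM. Plin5, a coat protein of lipid droplets, rose from 0.85, 1.02 and 1.52 to 55.98, 31.4, 39.9, 65.1 and 55.7 FPKM. Fabp3, the fatty acid carrier of heart muscle, rose from 108, 80.6 and 86.9 to 1237, 1248, 1067, 1019.8 and 1499 FPKM. Fabp4, a carrier of fat cells and capillary endothelium, rose from 19.7, 8.89 and 12.1 to 448, 376, 588, 159 and 502 FPKM.

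Related enzymes that commit fatty acids to oxidation moved apart. Acsl1, an acyl-CoA synthetase, rose by 3.26 and Acsl3, a relative, fell by 2.92. Cpt1b, the muscle carnitine transferase, rose from 121, 124 and 130.0 to 318, 270.4, 307, 342 and 255 FPKM, while Cpt1a, the liver and fetal form, stood at 13.99, 14.2 and 13.2 and at 12.4, 9.84, 12.5, 8.49 and 9.46, a difference of -0.37 (SE 0.15, adjusted p = 0.0514) that passed without adult replicate 1 (-0.43, adjusted p = 0.0356) or 3 (-0.43, adjusted p = 0.0339) by limma. With genes of over 25% shared sequence left out, 34 of 39 were higher and 2 lower.

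Of 34 genes of glycolysis and glucose entry 15 were higher and 15 lower, against 24.9% and 44.9% of all genes, and the median, -0.09, turned to 0.32 under median-ratio scaling. Without the 8 of over 25% shared sequence, 11 of 26 were higher and 13 lower. Glucose entry changed form: Slc2a4, the insulin-regulated carrier, rose from 53.6, 50.9 and 54.5 to 245, 244, 314, 283 and 371 FPKM, and Slc2a1, the fetal carrier, fell from 62.1, 70.5 and 64.7 to 10.6, 9.86, 10.7, 11.9 and 10.2. Hexokinases followed, with Hk2 up by 1.46 and Hk1 down by 1.27, as did phosphofructokinases, with Pfkm up by 2.02 and Pfkl down by 1.23.

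At the end of glycolysis Ldhb, the heart lactate dehydrogenase, rose from 201, 182 and 199 to 899, 846, 1048, 1154 and 768 FPKM, and Ldha, the form that makes lactate, fell from 576, 549 and 575 to 261, 247, 318, 344 and 299. They shared 41.4% and 34.2% of their words with pseudogenes. Slc16a3, the lactate exporter, fell from 102, 119 and 124 to 0.93, 0.62, 0.83, 0.78 and 1.33 FPKM. Pdk4, which shuts pyruvate out of the citric acid cycle, rose from 7.39, 8.40 and 8.58 to 61.7, 24.6, 65.6, 177 and 104 FPKM, with a wide spread among adult libraries, and Pdk3 fell from 13.1, 18.0 and 16.51 to 0.45, 0.28, 0.25, 0.06 and 0.09. Aldoc and Pygl, forms of aldolase and glycogen phosphorylase of other tissues, fell by 4.21 and 3.85. Pgk1, listed between 0.21 and 1.53 FPKM at E16.5 with 68.3% of its words in pseudogenes, is among the uncertain rises.

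Of 26 citric acid cycle genes 18 were higher and 1 lower. Ogdh, the oxoglutarate dehydrogenase, rose from 106, 102 and 101 to 575, 569, 571, 617 and 489 FPKM and Cs, citrate synthase, from 172, 153 and 145 to 632, 656, 583, 645 and 374. Idh3g, a subunit of isocitrate dehydrogenase, rose from 61.3, 23.4 and 11.4 to 718, 712, 622, 677 and 552 FPKM, with embryonic values that spread widely. Mdh1, the cytosolic malate dehydrogenase, rose from 6.55, 7.78 and 8.26 to 805, 619.9, 664, 648 and 177 FPKM. Its mean in the E11.5 bulk libraries was 165 FPKM. Its UMI level at E11.5 was 379 CPM, against 66.9 for Ogdh.

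Nuclear genes of the respiratory chain were higher in 50 of 76 cases and lower in 7, or 14 with libraries set to the same total, with a median of 0.89. Among cytochrome oxidase subunits the muscle forms gained on the general ones for Cox6a and Cox8, and not for Cox7a. Cox6a2, a muscle form, rose from 2302, 2338 and 2906 to 6775, 6705, 8929, 9957 and 17039 FPKM and Cox6a1 fell from 1397, 1327 and 1374 to 217, 219, 254, 232 and 402. Cox8b rose from 457, 464 and 458 to 4383, 4091, 3812, 4411 and 4075 FPKM and Cox8a fell from 1092, 1107 and 1044 to 631, 579, 487, 519 and 573. These pairs shifted by 4.30 and 4.13 on the log2 scale, with no overlap between groups.

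The 5 largest rises in the list were of genes listed at 17.1 FPKM or less at E16.5. Atp5g2 and Ndufb4, subunits of ATP synthase and complex I, were listed at 0, 0 and 0.18 and at 0, 0.19 and 0.46 FPKM at E16.5, at 0 in the E11.5 bulk mean, and at 124, 56.1, 128, 84.3 and 11.6 and 44.2, 37.8, 47.5, 47.0 and 74.0 at 8 weeks, with 668 and 263 UMI CPM at E11.5. Cox7b, another oxidase subunit, stood at 3.75, 5.33 and 2.62 FPKM at E16.5 and at 351, 329.6, 385, 402 and 143 at 8 weeks, Ndufa4 at 15.7, 17.1 and 16.3 and at 1620.4, 1749.6, 1129.8, 1331 and 107, and Cox7a2 at 5.1, 4.23 and 2.93 and at 398, 422, 355, 407 and 14.3. Their UMI levels at E11.5 were 710.4, 932 and 910.3 CPM and their bulk means at that age 110.5, 322 and 80.3 FPKM, so unlike Atp5g2 and Ndufb4 they were not near 0 in the bulk libraries of the younger heart. For Ndufa4 and Cox7a2 the adult replicate 5 lay far below the other 4. Cox7a1, the muscle form, rose from 332, 249 and 222 to 2866, 2890.3, 2633, 3080.0 and 4603 FPKM, but its ratio to Cox7a2 did not pass (exact permutation p = 0.143). Without replicate 5 that ratio shifted by -2.87 in place of -1.80 and passed (adjusted exact permutation p = 0.0339). Without the 9 subunits of over 25% shared sequence, 45 of 67 were higher and 5 lower.

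Carriers of energy and oxygen were higher in 11 of 17 cases and lower in 4. Mb, the oxygen store myoglobin, rose from 1202, 1133 and 1274 to 14861, 14767, 14347, 16391 and 19609.8 FPKM. Ckmt2, the mitochondrial creatine kinase of muscle, rose from 10.9, 10.2 and 13.1 to 1842, 1354, 1477, 1479 and 649 FPKM, a difference of 6.71 (SE 0.29, adjusted p = 9.87e-08). Ckm, the cytosolic muscle form, was high in both groups, at 2363, 2119 and 2457 and at 2216, 2083, 2351, 2608 and 3764 FPKM, and did not pass (a difference of 0.14, SE 0.20, adjusted p = 0.544, limma), while Ckb, the brain form, fell from 172, 171 and 183 to 28.2, 19.6, 34.2, 29.0 and 43.1. Slc25a4, the adenine nucleotide carrier of muscle, rose by 1.60.

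Of 25 regulators of metabolism 9 were higher and 6 lower, against 24.9% and 44.9% of all genes. With libraries set to the same total 11 were lower. Rxrg, a retinoid X receptor, stood at 0.19, 0.13 and 0.06 FPKM at E16.5 and at 51.0, 40.0, 39.1, 53.8 and 40.8 at 8 weeks. Ppara, the fatty acid receptor, rose from 3.92, 3.96 and 3.47 to 17.2, 18.1, 18.6, 19.9 and 11.6 FPKM, and Esrrb, an oestrogen-related receptor, by 1.81. Of the hypoxia factors Hif1a fell from 14.7, 17.4 and 14.9 to 6.38, 4.07, 4.45, 3.39 and 1.12 FPKM and Epas1, also expressed by endothelium, rose from 38.4, 37.2 and 42.2 to 101, 92.6, 125, 88.2 and 174. Of the thyroid hormone receptors Thra fell from 75.7, 66.5 and 71.9 to 41.9, 39.0, 36.5, 47.3 and 40.5 FPKM and Thrb rose from 0, 0.02 and 0.11 to 2.80, 2.36, 2.47, 1.93 and 1.24. The coactivators Ppargc1a and Ppargc1b did not pass, at -0.17 (SE 0.21, adjusted p = 0.477) and -0.27 (SE 0.20, adjusted p = 0.247), though Ppargc1b passed as lower with libraries set to the same total, at -0.62 (adjusted p = 0.0154, limma). Mycn and Myc, transcription factors of cell growth, fell by 2.99 and 2.03.

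Genes of the circadian clock were higher in 9 of 19 cases, or 4 with libraries set to the same total, and lower in 1, or 2 without replicate 5. Nr1d1, a repressor of the clock, rose from 12.2, 11.8 and 9.29 to 97.0, 59.6, 72.6, 86.8 and 37.5 FPKM. Dbp, a direct clock output, stood at 6.95, 5.36 and 5.71 FPKM in the embryos and at 52.1, 107, 168, 9.43 and 70.5 in the adult libraries, a spread of 9.43 to 168. Arntl, the clock activator that peaks at the opposite time of day from Dbp, stood at 4.85, 3.30 and 4.92 and at 4.65, 1.24, 0.17, 7.85 and 1.59 FPKM and did not pass (a difference of -0.72, SE 0.57, adjusted p = 0.276, limma). Replicate 3 had the highest Dbp and the lowest Arntl of the adult libraries, while replicate 4 had the lowest Dbp and the highest Arntl. The times of tissue collection are not given in the sources used here. The E-box CACGTG, read on both strands, lay within 250 bases before to 50 after a RefSeq start (GRCm38.p6) in 5 of 16 tested clock genes with a promoter in the table (31.2%) and in 12.3% of 8245 tested genes. Ciart, a clock repressor with 3 such matches, stood at 2.19, 1.59 and 0.81 FPKM and at 2.94, 4.55, 23.2, 2.64 and 8.58, a rise of 1.53 whose call was not stable and was lost without any 1 E16.5 library, at 1.31 to 1.72 (adjusted p = 0.0533 to 0.12, limma). The 250 bases before its start (chr3:95882229-95882478, minus strand) are shown for the grouping of the matches, in capitals.
Ciart: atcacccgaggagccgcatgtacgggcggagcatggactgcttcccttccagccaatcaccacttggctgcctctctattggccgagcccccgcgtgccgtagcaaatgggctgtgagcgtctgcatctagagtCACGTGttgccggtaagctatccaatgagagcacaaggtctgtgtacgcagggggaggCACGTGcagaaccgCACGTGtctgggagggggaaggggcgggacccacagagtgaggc

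Cell cycle genes were lower at 8 weeks. The 8-week mean was below the E16.5 mean for all 40 DNA replication genes of the list and for 41 of 42 mitosis genes, against 9682 lower and 6993 higher means among all genes of the table. Of the 32 and 34 that were tested, 31 and 32 were called lower and 0 and 1 higher. Those counts are a description, since 17 of the 31 and 27 of the 32 were under 1 FPKM at 8 weeks and passed the filter only through E16.5. Ube2c, the ubiquitin conjugase of the anaphase-promoting complex, stood at 189, 198 and 212 FPKM at E16.5 and at 0, 0.68, 1.20, 1.37 and 1.71 at 8 weeks. Cdc20, an activator of that complex, fell from 38.6, 33.9 and 35.8 to 0, 0.32, 0.43, 0.43 and 1.60 FPKM, and Cdk1, the kinase that drives mitosis, from 10.4, 10.9 and 14.2 to 0, 0.13, 0.30, 0.04 and 0. Rrm2, which makes deoxynucleotides, fell from 63.6, 63.7 and 74.2 to 0.48, 0.17, 0.74, 0.63 and 1.04 FPKM. Birc5 and Plk1, of chromosome segregation, fell by 5.32 and 5.20. The E16.5 samples were whole ventricle, not isolated cells.

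The exception in mitosis was Pttg1, the securin that holds sister chromatids together, listed at 0.83, 0.43 and 0.78 FPKM at E16.5 and at 149, 155, 129.5, 131 and 120.4 at 8 weeks. Its mean in the E11.5 bulk libraries was 43.3 FPKM, its E11.5 UMI level was 45.7 CPM, and 0.79% of its words were shared with pseudogenes. The cyclin Ccnd2 and Gmnn, the inhibitor of replication licensing, did not pass, at -0.51 and -0.40. Ccnd2 passed without adult replicate 3, at -0.61 (adjusted p = 0.0396, limma), or 5, at -0.33 (adjusted p = 0.047, limma). Cyclin Ccnd1 fell from 57.5, 57.2 and 63.3 to 8.13, 8.65, 17.2, 8.77 and 20.9 FPKM.

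A pair of short promoter elements known from cell cycle genes were searched on both strands in the RefSeq promoters (GRCm38.p6), TTTGAA, the cell cycle homology region, and CCAAT. The former lay in 19 of 26 tested mitosis genes with a promoter in the table (73.1%), in 5 of 26 replication genes (19.2%) and in 13.2% of all 8245 tested genes. CCAAT lay in 73.1% of the mitosis genes, 57.7% of the replication genes and 42.5% of all tested genes. The matches of both shared bases in 1 of 62 promoters. The 250 bases before the start are shown for 3 mitosis genes that hold both elements and 1 replication gene that holds CCAAT without TTTGAA, with the matches in capitals. They are Ube2c (chr2:164769679-164769928, plus strand), Cdc20 (chr4:118437344-118437593, minus strand), Cdk1 (chr10:69352913-69353162, minus strand) and Rrm2 (chr12:24708004-24708253, plus strand).
Ube2c: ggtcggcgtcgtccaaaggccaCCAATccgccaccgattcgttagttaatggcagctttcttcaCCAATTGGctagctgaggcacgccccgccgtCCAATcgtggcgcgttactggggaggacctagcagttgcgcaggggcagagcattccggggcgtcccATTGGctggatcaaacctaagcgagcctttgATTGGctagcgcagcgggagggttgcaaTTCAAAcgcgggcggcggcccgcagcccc
Cdc20: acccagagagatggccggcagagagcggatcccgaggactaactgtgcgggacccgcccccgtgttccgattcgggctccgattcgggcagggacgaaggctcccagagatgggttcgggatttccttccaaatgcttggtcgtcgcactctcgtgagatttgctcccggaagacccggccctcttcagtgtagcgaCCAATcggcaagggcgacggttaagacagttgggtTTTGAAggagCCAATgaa
Cdk1: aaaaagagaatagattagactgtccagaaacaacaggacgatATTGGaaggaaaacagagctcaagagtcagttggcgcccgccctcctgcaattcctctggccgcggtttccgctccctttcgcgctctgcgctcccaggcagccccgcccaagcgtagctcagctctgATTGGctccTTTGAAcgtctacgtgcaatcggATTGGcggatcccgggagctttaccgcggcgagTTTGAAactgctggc
Rrm2: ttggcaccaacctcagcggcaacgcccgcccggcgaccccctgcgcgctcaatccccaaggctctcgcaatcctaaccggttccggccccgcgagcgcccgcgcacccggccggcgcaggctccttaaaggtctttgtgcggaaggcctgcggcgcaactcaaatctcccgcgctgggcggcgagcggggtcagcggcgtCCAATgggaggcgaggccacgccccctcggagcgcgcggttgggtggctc
In the first 3 the TTTGAA match nearest the start began 29, 18 and 15 bases before it.

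Of 15 inhibitors of the cell cycle 6 were higher and 8 lower, against 24.9% and 44.9% of all genes. Cdkn1c, an imprinted inhibitor of cyclin-dependent kinases, fell from 96.9, 93.2 and 99.0 to 4.98, 4.53, 9.57, 1.53 and 11.1 FPKM. Meis1, a homeobox factor linked to the arrest of cardiomyocyte division, fell from 15.3, 18.8 and 19.1 to 8.65, 7.65, 7.46, 3.72 and 3.51 FPKM. Gadd45a and Btg2, which also respond to stress, rose by 2.73 and 2.42.

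Imprinted and oncofetal growth genes had lower means at 8 weeks in 25 of 26 cases and higher means in none. Of 23 tested 22 were called lower, and 9 of these were under 1 FPKM at 8 weeks and passed the filter only through E16.5. H19, an imprinted non-coding RNA, stood at 4946, 4611 and 5342 FPKM at E16.5 and at 8.24, 14.4, 3.04, 3.44 and 11.9 at 8 weeks, a 606-fold difference of means (a difference of -9.28, SE 0.43, adjusted p = 1.28e-07, limma). Igf2, the fetal growth factor expressed from the same imprinted region, fell from 1365, 1319.7 and 1505 to 14.1, 25.1, 14.6, 12.9 and 11.8 FPKM. Igf1, the growth factor of later life, also fell, from 3.55, 3.67 and 2 to 0.30, 0.37, 0.82, 0.51 and 0.19 FPKM, but less, so the Igf1 to Igf2 ratio rose by 4.94. Mest and Plagl1, imprinted genes of the same network, fell by 7.71 and 6.37. Dlk1 fell from 66.7, 54.6 and 68.4 to 0.04, 0.13, 0, 0 and 0 FPKM. Igf2bp1, an RNA-binding protein of fetal tissues, stood at 8.47, 8.75 and 8.34 FPKM at E16.5 and was listed at 0 in all 5 adult libraries. Of all genes at or above 50 FPKM in the higher group that met the rule for naming, Tnni1, H19, Mest, Ube2c, Igf2, Plagl1, Mdk, Slc16a3, Dlk1 and Mfap2 had the 10 largest falls.

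Among the 10 largest rises by the same rule were Gapdh, Gm12070, Tuba8, Art1, Ckmt2, Rpl3l, Pttg1, Rpl35 and Hspa1a, and Gapdh, Gm12070 and Rpl35 have the low E16.5 values or shared sequence described above. Rpl35, a ribosomal protein listed at 0.59, 0.81 and 0.73 FPKM at E16.5, had 1951 UMI CPM at E11.5. Tuba8, Art1 and Rpl3l were low in both embryonic measurements. Tuba8, an alpha tubulin of muscle and testis, stood at 0, 0.21 and 0 FPKM at E16.5 and at 277, 241, 247, 344 and 145 at 8 weeks, with 1.55 UMI CPM at E11.5. Art1, a muscle ADP-ribosyltransferase, stood at 0.71, 0.18 and 1.01 and at 168, 158, 214, 184 and 199 FPKM, with 1.11 UMI CPM. Rpl3l, a ribosomal protein that replaces Rpl3 in striated muscle, stood at 1.29, 2.13 and 0.92 and at 272, 265, 227, 269.7 and 210.4 FPKM, with 0.27 UMI CPM.

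Of 26 cardiac transcription factors 13 were lower and 1 higher, against 44.9% and 24.9% of all genes, with a median of -0.51. Hey2, a Notch target of the compact myocardium, fell from 123, 100.5 and 106 to 3.68, 3.68, 3.78, 3.90 and 5.74 FPKM, a difference of -4.44 (SE 0.16, adjusted p = 3.65e-08). Hand1, the relative of Hand2, stood at 8.69, 9.54 and 8.87 FPKM at E16.5 and was listed at 0 in every adult library. Tbx20 fell from 121, 111 and 104 to 23.8, 20.9, 14.2, 21.9 and 14.8 FPKM. Gata4 and Tbx5, central factors of the heart, stood at 71.4, 67.9 and 63.1 and 61.2, 53.3, 57.1, 57.7 and 50.3 FPKM and at 14.7, 16.6 and 16.9 and 19.1, 17.5, 18.2, 14.6 and 18.3 FPKM, and did not pass (differences of -0.27 and 0.12, adjusted p = 0.0546 and 0.428, limma). Gata4 passed without adult replicate 1, at -0.30 (adjusted p = 0.0469, limma), or 5, at -0.23 (adjusted p = 0.0446, limma), and with libraries set to the same total, at -0.63 (adjusted p = 0.00138, limma). Tbx5 passed as higher under median-ratio (0.51, adjusted p = 0.00564) and upper-quartile scaling (0.40, adjusted p = 0.0143) by limma. Irx3, of the conduction system, was the 1 factor that rose, by 0.95, or 1 of 4 under median-ratio scaling and 1 of 2 without replicate 5.

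Of 22 splicing regulators 12 were lower and 5 higher, with a median of -0.54, against 44.9% lower, 24.9% higher and a median of -0.34 over all genes. Rbfox1, a splicing factor of mature muscle and neurons, rose from 1.86, 1.94 and 1.83 to 15.7, 12.9, 14.3, 13.96 and 14.7 FPKM. Srsf1, a general splicing factor, fell from 84.0, 97.8 and 94.5 to 6.5, 7.46, 6.76, 5.82 and 5.59 FPKM and Ptbp1, a repressor of muscle exons, from 91.0, 89.2 and 87.0 to 16.4, 14.6, 27.1, 14.2 and 36.4. Rbm20, the regulator of titin splicing, stood at 77.2, 83.4 and 88.0 and at 59.1, 70.8, 72.1, 54.3 and 57.4 FPKM. Its difference of -0.40 passed as deposited but not under every scaling, and was lost without E16.5 replicate 2 (-0.40, adjusted p = 0.0678) or 3 (-0.36, adjusted p = 0.0811) by limma.

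Matrix genes had lower means at 8 weeks in 32 of 36 cases, and 28 of 34 tested were called lower. Col3a1 and Col1a1, fibrillar collagens, fell from 413, 424 and 433 to 10.2, 4.85, 11.53, 5.89 and 8.08 FPKM and from 648, 492 and 514 to 12.3, 7.11, 16.7, 13.4 and 14.6. Dcn, decorin, a proteoglycan of fibroblasts, rose instead, from 1.43, 0.99 and 1 to 51.9, 31.5, 52.8, 23.04 and 3.08 FPKM. Of 12 tested fibroblast markers 6 were lower and 1 higher, against 44.9% and 24.9% of all genes. Another 5 were not called, and the median of the 12 was -0.92. Fibroblast markers summed to 1288 to 1470 FPKM at E16.5 and 79.0 to 157 at 8 weeks, sums carried by collagens that the matrix list also holds. The part of fewer fibroblasts in the fall of matrix genes was not tested.

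Of 17 natriuretic and load-response genes 10 were higher and 2 lower. Nppb, the brain natriuretic peptide, stood at 2.54, 1.72 and 2.55 FPKM at E16.5 and at 265, 295, 114, 237 and 47.2 at 8 weeks, a difference of 5.62 (SE 0.54, adjusted p = 1.25e-05). Nppa, the atrial peptide, overlapped between groups, at 294, 468 and 444 and at 1076, 499.8, 172, 385 and 79.9 FPKM, and did not pass (a difference of -0.34, SE 0.70, adjusted p = 0.678, limma). The small heat shock proteins Cryab, Hspb8 and Hspb6 rose by 4.12, 4.11 and 3.49, Cryab from embryonic values of 435, 273 and 116 FPKM that themselves spread widely. Npr3, the receptor that clears natriuretic peptides, fell from 8.95, 7.82 and 7.76 to 1.29, 1.38, 1.09, 0.43 and 0.42 FPKM.

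Immediate early and heat shock genes, which can be induced while tissue is dissociated into cells, were higher in 27 of 33 cases, with a median of 1.75. Fos stood at 2.58, 3.45 and 1.18 FPKM at E16.5 and at 305, 232, 192, 297 and 181 at 8 weeks. Egr1 rose from 12.9, 10.7 and 9.66 to 593, 431, 512, 867 and 543 FPKM and Atf3 from 4.6, 2.30 and 5.32 to 126, 99.0, 60.1, 141 and 57.7. Hspa1a rose from 0.90, 0.80 and 1.07 to 171, 191, 124, 53.8 and 258 FPKM, and the near-identical Hspa1b, whose reads may not be separable, from 1.26, 1.31 and 1.92 to 193, 209, 132, 55.6 and 288. Only the 8-week samples were isolated cells, so age and isolation cannot be told apart for these genes. Btg2, Gadd45a and Nppb, given above, rose in the same libraries, and the part of isolation in those rises was not tested.

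Antigen presentation genes were higher in 17 of 21 cases and lower in 1. H2-K1, a class I molecule, rose from 9.74, 12.1 and 9.07 to 35.3, 65.9, 101, 47.0 and 76.6 FPKM and Tap2, the peptide transporter, from 2.69, 2.63 and 2.92 to 18.6, 12.9, 16.6, 12.5 and 16.7. B2m, the light chain of class I, stood at 2.28, 2.28 and 0.45 and at 125, 98.7, 205, 88.2 and 0.71 FPKM, with replicate 5 at the embryonic level. Macrophage and leukocyte markers went the other way in sum, at 45.1 to 88.6 FPKM at E16.5 and 14.3 to 18.3 at 8 weeks. Of 15 such markers, 8 had lower means at 8 weeks and 6 had higher means. Without E16.5 replicate 3 the B2m difference was 3.997 and did not pass (adjusted p = 0.0601, limma).

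Markers of the labelled cells were present in both groups: the 12 cardiomyocyte markers summed to 16810 to 19400 FPKM at E16.5 and 52640 to 65750 at 8 weeks. Markers of other cells were lower at 8 weeks for some types and not for others. Epicardial markers summed to 39.8 to 53.7 FPKM at E16.5 and 2.67 to 7.67 at 8 weeks, with lower means for 8 of 9, among them Krt19, from 12.6, 9.33 and 11.1 to 0.46, 0, 0.10, 0.10 and 0.13 FPKM. The macrophage and leukocyte sum fell from 45.1 to 88.6 FPKM to 14.3 to 18.3. Means of this list were lower for 8 of 15 markers and higher for 6. The erythroid sum fell from 2174 to 2759 to 29.0 to 284.5, with lower means for 9 of 13 and higher means for 2.

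Endothelial markers were divided. They summed to 459 to 518 FPKM at E16.5 and to 185 to 703 at 8 weeks. Of 16 tested, 3 were higher and 4 lower, against 24.9% and 44.9% of all genes. Without replicate 5, 10 were lower. Pecam1, an endothelial adhesion molecule, rose from 10.5, 7.62 and 3.31 to 42.5, 47.8, 54.7, 28.2 and 51.7 FPKM, and Emcn, endomucin, from 0.42, 0.23 and 0.10 to 6.54, 8.56, 11.4, 2.03 and 4.88. Plvap, of fenestrated and embryonic vessels, fell from 32.6, 31.8 and 28.8 to 8.27, 5.92, 4.03, 2.75 and 4.98 FPKM. Replicate 4 had the lowest endothelial sum and the lowest adult Fabp4, and replicate 5 the highest sum. Of the mural cell markers, Myh11, the smooth muscle myosin, rose from 1.10, 1.10 and 0.99 to 36.7, 34.3, 25.4, 26.6 and 35.5 FPKM and Cnn1, calponin, fell from 47.5, 60.4 and 60.8 to 3.42, 2.91, 2.43, 2.38 and 4.09. The mural sum is dominated by Des, which cardiomyocytes express too. Of 3 tested Schwann cell and neural crest markers 1 was higher (none without replicate 5) and 1 lower, and of 3 tested skeletal muscle markers 2 were lower and none higher. Genes called in general use were divided, with 11 of 28 higher and 8 lower, against 24.9% and 44.9% of all genes.

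**Figure D5:**
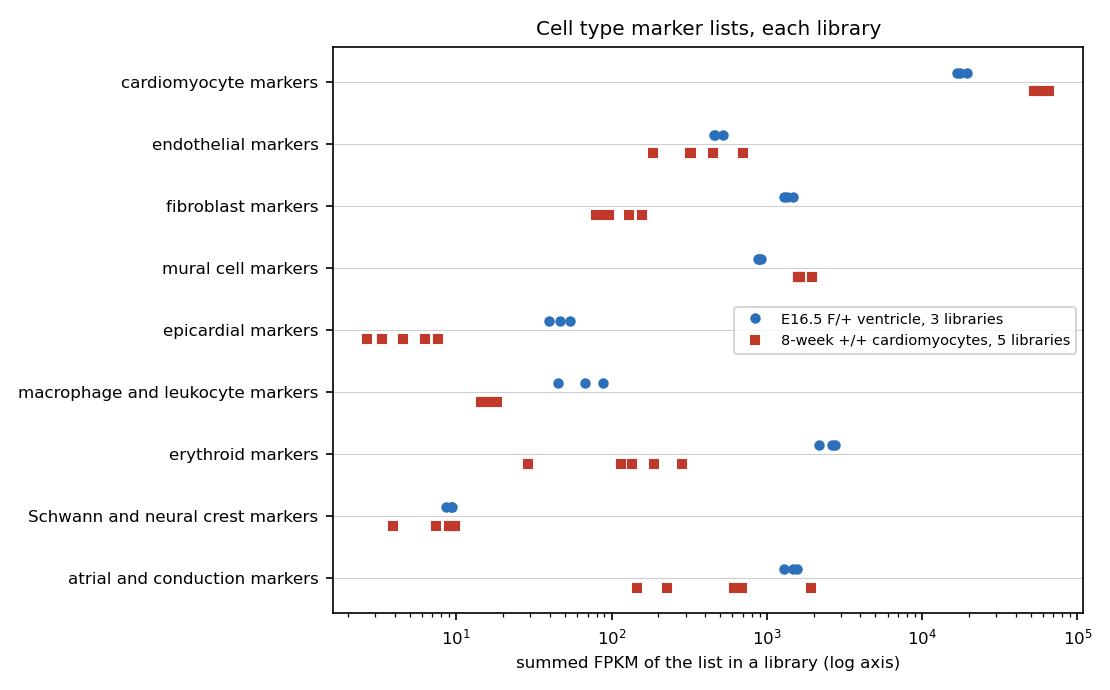
Summed FPKM (x axis, log scale) of 9 lists of cell type markers (y axis) in each of 3 E16.5 ventricle (circles) and 5 8-week cardiomyocyte libraries (squares). Fibroblast, epicardial, macrophage and erythroid sums are lower at 8 weeks with no overlap, cardiomyocyte and mural sums are higher with no overlap, and the atrial and conduction sum spans 146 to 1923 FPKM among adult libraries.

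Atrial markers varied widely among the adult libraries. The 14 markers summed to 1295 to 1556 FPKM in the 3 ventricles and to 146 to 1923 in the 5 adult libraries. Myl7, Myl4 and Nppa, given above, had the same highest and lowest library, replicate 1 and replicate 5, and Sln was listed at 0 in replicate 5 and at 210 FPKM in replicate 1. Bmp10, a growth factor of the fetal trabeculae and adult right atrium, stood at 5.98, 7.88 and 7.16 FPKM at E16.5 and at 3.27, 0.45, 0, 0 and 0 at 8 weeks. The chambers from which the adult cells were taken are not given in the sources used here.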

How the data were processed

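Bulk poly(A) RNA, prepared with TRIzol, Dynabeads and a stranded TruSeq kit per the labels' protocols, was sequenced by the authors. Per the submitters' processing notes CASAVA, TopHat and TopHat2 2.0.11 with build mm9 were used for the bulk libraries, in roles and with an annotation and strand setting not given in the sources used here. The deposited table holds FPKM, a unit inferred from its values, so read depth is unknown. The number of libraries limits the precision. Of 24525 lines, 769 that repeat 270 symbols held identical values within a symbol and were merged, and 1 line with a blank cell was left out. Counts of UMIs, as deposited by the authors for E11.5 heart cells, were summed over 6032 barcodes (89735048 UMIs) and used only as a check of low FPKM.

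Groups came from the labels. Genes that averaged 1 FPKM or more over these libraries were tested with limma 3.58.1 (R 4.3.3) on log2(FPKM + 1) with an intensity trend and Benjamini-Hochberg adjustment at 0.05, over the 8 control libraries, and checked on simulated data. Ratios of gene pairs were tested by a two-sided exact permutation test (scipy 1.17.1). Sequence sharing used words of 31 bases and 13250 pseudogenes of the annotation given here, and 94.1% of tested genes had a value. Promoters came from RefSeq tables of GRCm38.p6, matched by symbol for 8245 tested genes. No coordinates of mm9 were used. Replicate numbers were treated as names: deviations of same-numbered libraries correlated at -0.03, 0.01 and 0.01.

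The comparison and the gene lists were chosen with earlier results of these data known. Genes were named by a rule: both partners of each pair, the genes in general use, the 3 called members of each functional list (2 of each cell type list) with the largest rise and fall at a mean of at least 5 FPKM in the higher group and no overlap, and the 10 largest rises and falls over all genes at 50 FPKM. That last part left out small RNA, ribosomal RNA, globin, Y-linked and Xist genes. Others, such as Ttn, Myoz1, Ndufb4, Ryr2, Cdc20, Cdk1, Ciart, Sln, Nppa, Egr1 and Gata4, were chosen after their values were seen. Alternatives were other pseudocounts, filters, scalings, weights, blocks and libraries left out. Some genes that met the rule are not reported here.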

Additional observations from a re-analysis of the deposited data

Results flagged for a closer look

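In these genes 1 of the 5 8-week libraries lay apart from the other 4, by a gap of more than Dixon's 95% critical share of the group's range. Chance gives about 1 in 20 groups, and this was so for 27 of the 172 genes named in the text, in 16 of them by replicate 5. Replicate 1 was the highest for Bmp10 at 3.27 FPKM, Krt19 at 0.46 FPKM, Myl4 at 229 FPKM, Myl7 at 323 FPKM and Sln at 210.2 FPKM. Replicate 1 was the lowest for Obsl1 at 20.1 FPKM. Replicate 2 was the highest for Igf2 at 25.1 FPKM, Myh7 at 804 FPKM and Myom2 at 730.4 FPKM. Replicate 2 was the lowest for Hcn2 at 16.8 FPKM. Replicate 3 was the highest for Ciart at 23.2 FPKM. Replicate 5 was the highest for Cdc20 at 1.60 FPKM, Cox6a1 at 402 FPKM, Cox7a1 at 4603 FPKM, Des at 1579 FPKM, Eno1 at 6.38 FPKM, Hey2 at 5.74 FPKM and Ndufb4 at 74.0 FPKM. Replicate 5 was the lowest for Casq2 at 16.6 FPKM, Cox7a2 at 14.3 FPKM, Cox7b at 143 FPKM, Cs at 374 FPKM, Hspb8 at 177 FPKM, Kcnj2 at 1.22 FPKM, Pln at 222 FPKM, Ppia at 1.20 FPKM and Xirp2 at 8.83 FPKM. The 1 gene whose difference between 8 weeks and E16.5 differed between the controls and the D/D and F/F libraries was the microRNA gene Mir6236, by -5.05 on the log2 scale (limma interaction).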

How the results depend on the processing

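With a filter at a mean of 5 FPKM, 3015 genes were called lower and 1016 lower past 2-fold, with fewer genes tested. Genes lower past 2-fold numbered 1022 under median-ratio scaling and 2416 with libraries set to the same total, against 1586. Leaving out 1 library gave 2376 to 3204 higher and 4278 to 5332 lower genes, 754 to 1313 higher and 1263 to 1903 lower past 2-fold, and, in the D/D and F/F libraries, 2243 to 2866 higher and 3998 to 4895 lower. The difference of the 2 comparisons then passed for 1 to 2 genes, and for 9 with no filter on low values. The number of pairs passing was 0 to 27 without 1 library. With the replicate number as a block, 3160 genes were higher and 5023 lower, and 1302 and 1769 past 2-fold. Of the genes named, the replicate block added calls for Arntl (-1.11, adjusted p = 0.0403), Eno1 (-1.95, adjusted p = 0.00656) and Sln (4.31, adjusted p = 0.0153) by limma and removed none.

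Some differences that did not pass changed sign, as did Rbm20, and their causes were not tested. With libraries set to the same total these were Cacna1c (-0.11), Ckm (-0.23), Hand2 (-0.23), Hcn4 (-0.14), Pgam2 (-0.16) and Tbx5 (-0.23). Under median-ratio scaling they were Cpt1a (0.016), Gata4 (0.15), Nppa (0.077), Ppargc1a (0.23), Ppargc1b (0.13) and Rbm20 (0.0125), and under upper-quartile scaling Gata4 (0.031), Ppargc1a (0.11) and Ppargc1b (0.0143). With the replicate block they were Ckm (-0.060), Hand2 (-0.14), Nppa (0.20) and Pgam2 (-0.002), with array weights Hand2 (-0.064), Hcn4 (-0.022) and Nppa (0.053), and with adult replicates 1 and 2 alone Ckm (-0.10), Hand2 (-0.33), Nppa (0.90) and Pgam2 (-0.018). Of these last, Hand2 passed as lower (adjusted p = 0.0351) and Nppa as higher (adjusted p = 0.0421) by limma. Calls gained under a scaling and not given above were Pgam2, higher under median-ratio (0.63, adjusted p = 0.037) and upper-quartile scaling (0.51, adjusted p = 0.0422), and Ccnd2 (-0.86, adjusted p = 0.0139) and Cpt1a (-0.71, adjusted p = 0.00401), lower with libraries set to the same total, by limma. Without 1 library Ckm ranged from -0.0014 to 0.21, Hand2 from -0.043 to 0.28, Nppa from -0.79 to 0.14, the ratio of Ppargc1a to Ppargc1b from -0.068 to 0.30 and that of Eef1a2 to Eef1a1 from -0.12 to 0.96. Restricting to genes of at most 25% shared sequence was chosen after seeing the data.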
